A study of Mus musculus with 8 samples.

Results

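The growth factors and matrix proteins described here act on blood and lymph vessels. They were 10 genes: Vegfa, Vegfb, Vegfc and Pgf of the VEGF family, the angiopoietins Angpt1 and Angpt2, the angiopoietin-like genes Angptl2 and Angptl4, and the thrombospondins Thbs1 and Thbs2. Every non-control probe whose gene name in the array files was a member was taken, which gave 11 probes of the 39429 on the array, with 2 probes for Vegfa and 1 for each other gene. All 11 were among the 22849 probes tested, and each was analysed on its own.

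RNA came from NMuMG-NT2197 cells, which derive from NMuMG, a line of mouse mammary epithelium. In 4 samples the cells carried a pMSCV/hygro vector with a cDNA of ShcA R175Q, in which glutamine takes the place of arginine, and in 4 samples the same vector with wild-type ShcA, titled nT. ShcA is an adaptor that docks on activated receptor tyrosine kinases, and its PTB domain binds phosphotyrosine. Each sample was hybridised in Cy3 with a common reference RNA in Cy5 on 1 Agilent array, without exchange of dyes, so that every level given here is a log2 ratio of sample to reference for that probe and is not comparable between probes. The labels do not state whether the lines were pools or clones, how much endogenous ShcA the cells kept, or whether replicates came from separate cultures, so a p-value covers only the spread among the samples at hand, which may be technical. They name the reference as mouse RNA in 1 field and as human RNA in another, and they call the material microdissected although the cells were cultured. The comparison addressed which transcripts differ when the cells carry the R175Q form in place of wild-type ShcA.

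As background, VEGF ligands signal through receptor tyrosine kinases on endothelial cells: VEGF-A mainly through Kdr and Flt1, VEGF-B and placental growth factor through Flt1, and VEGF-C through Flt4, the receptor of lymphatic vessels. Angiopoietin-1 activates the endothelial receptor Tek and steadies vessels, and angiopoietin-2 can oppose it. Thrombospondins 1 and 2 are secreted matrix glycoproteins that inhibit angiogenesis through receptors such as Cd36 and Cd47. Tumour cells are a known source of several of these proteins.

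The sequences shown are those of Vegfa at 1 of its 2 probes, the pair Angpt1 and Angpt2, and the pair Thbs1 and Thbs2. The choice does not follow which genes passed. Their probe sequences are printed as the array files give them, 5′ to 3′ and in lower case, whole for Thbs2 and as the first 30 of 60 bases for the other 4.
Vegfa A_52_P638895: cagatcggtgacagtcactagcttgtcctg
Angpt1 A_55_P2158227: catgtgtgtagcaatttgatacgcatagct
Angpt2 A_51_P201982: acctatcttgatggcttagtttttaatggc
Thbs1 A_55_P2017636: gcctgtagagttagtatttctggtttttat
Thbs2 A_51_P461877: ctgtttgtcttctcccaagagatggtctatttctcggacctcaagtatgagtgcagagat
In mm9 this Vegfa probe lies at chr17:46154387-46154446 on the minus strand. The Angpt1 probe lies at chr15:42256335-42256394 and the Angpt2 probe at chr8:18691458-18691517, both on the minus strand. The Thbs1 probe lies at chr2:117952585-117952644 on the plus strand. The Thbs2 probe lies on the minus strand and spans chr17:14804526-14805789, so its 60 bases cover 1264 bases of the genome. No gene model was used, so whether a probe reads coding sequence or a UTR was not determined.

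On each array 53.7% to 63.0% of spots were well above background in Cy3, and 0 were saturated. Arrays correlated pairwise with Pearson's r of 0.969 to 0.996 across the probes tested. The 8 arrays lay on 4 slides, of which slide 1 held a single R175Q array and slides 2, 3 and 4 held both groups. Precision is limited by having 4 arrays in each group. Shc1, which encodes ShcA, differed by −0.12 ± 0.10 (SE, adjusted p = 0.496 in limma), and since both groups carried a ShcA cDNA this does not check the labels. Wild-type replicate 3 stood apart: its median absolute deviation from its group mean over all probes was 0.112 log2, against 0.054 to 0.083 on the other 7 arrays. Results are therefore given with and without it where it matters.

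Of the 11 probes, 6 rose in R175Q samples, 0 fell and 5 did not pass at an adjusted p of 0.05 in limma, with the adjustment over all 22849 probes. At an unadjusted p of 0.05, 7 were higher and 0 lower. The genes that rose were Angpt1, Thbs1, Angptl2, Angptl4, Vegfc and Thbs2. Over all probes 17.6% passed, 7.91% higher in R175Q and 9.72% lower, that is 1807 higher and 2221 lower (2791 higher and 813 lower when arrays were centred on their medians in place of loess). The median difference was 0.41 log2 over the 11 probes and −0.02 over all probes tested. The groups did not overlap for 6 of the 11 probes, against 22.9% of all probes. All 11 probes were well above background on all 8 arrays in both channels.

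**Figure D1:**
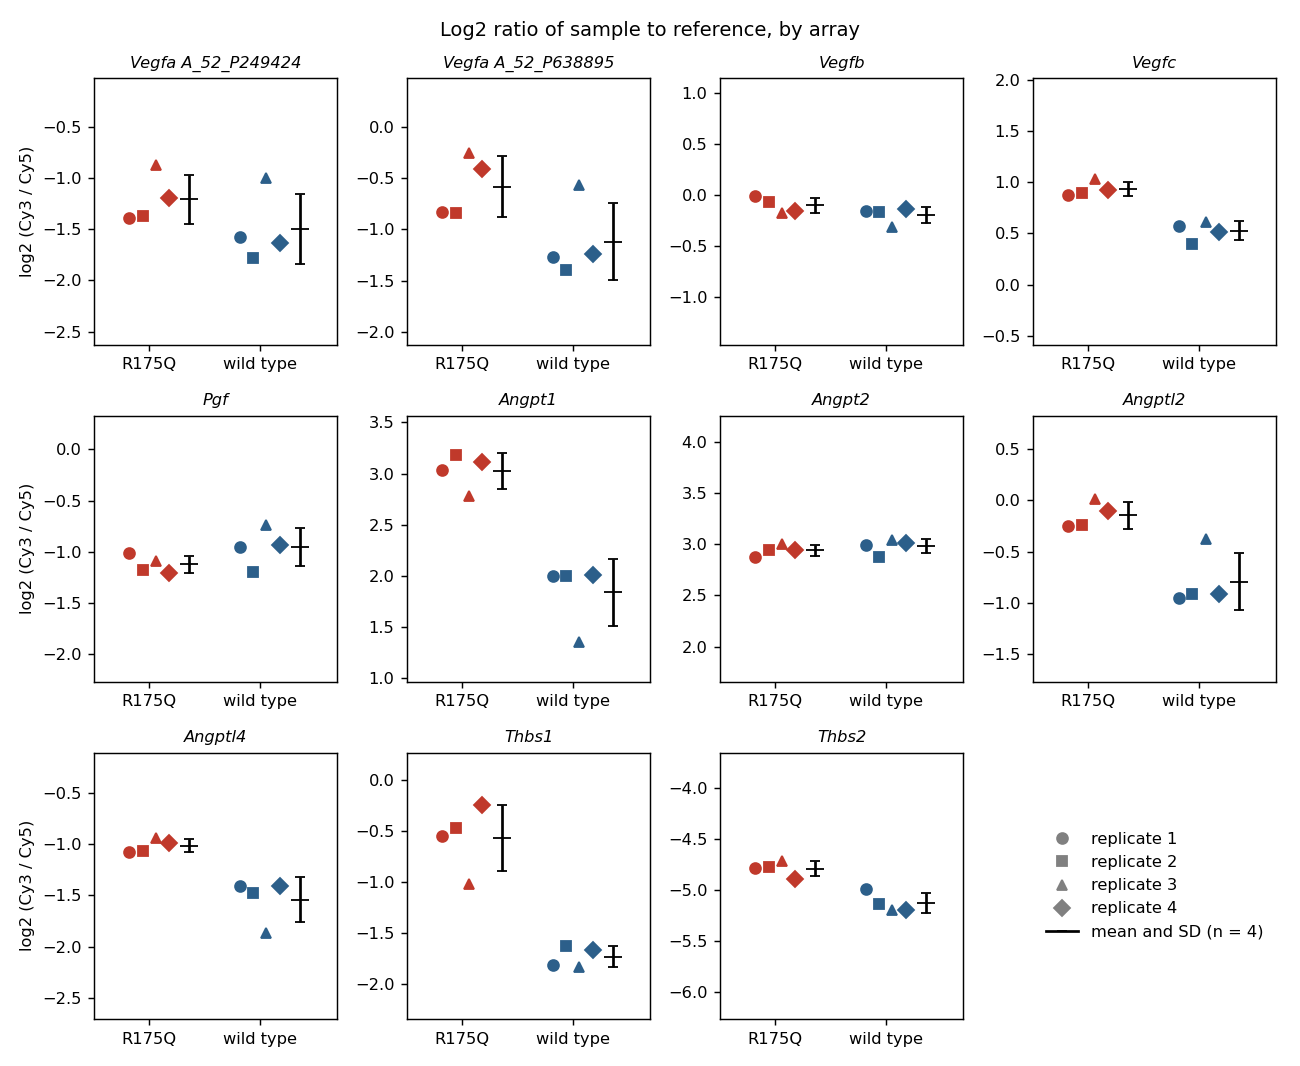
Log2 ratio of Cy3 to Cy5 (vertical axis, each panel spanning the same range of log2 units) for the 11 probes, with the 4 R175Q arrays left of the 4 wild-type arrays, 1 symbol per array, and the mean with its SD (n = 4) beside them. The groups lie apart for Vegfc, Angpt1, Angptl2, Angptl4, Thbs1 and Thbs2 and overlap in the other 5 panels.

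Angpt1, which encodes the agonist of Tek, had the largest difference of the 11 probes over all 8 arrays. Its log2 ratios were 3.03, 3.18, 2.78 and 3.11 in R175Q replicates 1 to 4, against 2.00, 2.00, 1.35 and 2.01 in wild-type replicates 1 to 4. Every R175Q array lay above every wild-type array, with a gap of 0.76 between the groups, and wild-type replicate 3 was the lowest of the 8. The gene rose by 1.18 ± 0.15 log2, or 2.27-fold (SE, 4 arrays per group, adjusted p = 0.000521 in limma), a change of size rank 95 among all probes tested. Within slides 2, 3 and 4 the difference was 1.18, 1.10 and 1.10. Without wild-type replicate 3 it was 1.02, below the 1.13 of Thbs1, and without R175Q replicate 3 it was 1.27, below the 1.31 of Thbs1.

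Angpt2, the other angiopoietin, did not pass. Its log2 ratios were 2.87, 2.94, 3.00 and 2.95 in R175Q samples, against 2.99, 2.88, 3.04 and 3.02 in wild-type samples. The groups overlapped throughout. The difference was −0.04 ± 0.06 log2 (adjusted p = 0.682 in limma), with a 95% interval of −0.18 to 0.09, and its sign turned under 4 of 23 alternatives. Both angiopoietins were thus measured above the reference in every sample, and the difference between the forms of ShcA passed for Angpt1 alone. Whether the 2 genes' differences differ from each other was not tested.

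Thbs1, the adhesive glycoprotein thrombospondin 1, was lower than the reference in every sample and rose in R175Q samples. Its log2 ratios were −0.55, −0.47, −1.02 and −0.25 in R175Q samples, against −1.81, −1.62, −1.83 and −1.66 in wild-type samples. The groups were apart by 0.61, and R175Q replicate 3 was the array of its group nearest to wild type. The gene rose by 1.16 ± 0.14 log2, or 2.23-fold (SE, 4 arrays per group, adjusted p = 0.000365 in limma). Its difference was 1.34 within slide 2, 0.71 within slide 3 and 1.41 within slide 4. Slide 3 holds R175Q replicate 3, and without that array the difference over all slides was 1.31.

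Thbs2, the closest relative of Thbs1, rose too, and whether the size of its change differs from that of Thbs1 was not tested. Its log2 ratios were −4.79, −4.78, −4.72 and −4.89 in R175Q samples, against −4.99, −5.14, −5.19 and −5.20 in wild-type samples. By the mean log2 ratio, which follows background correction with an offset and scaling, the reference was 27.7 times R175Q samples and 35.0 times wild-type samples. The net Cy3 signal ran from 174.7 to 304.0, at least 11.6 times the median of the negative control spots. The net Cy5 signal ran from 12101 to 14289, so the uncorrected signals differed by more than these ratios. The gene rose by 0.34 ± 0.07 log2, or 1.26-fold (adjusted p = 0.00704 in limma), and the difference was 0.21, 0.44 and 0.31 within slides 2, 3 and 4. It depended on the background correction: with limma's default fit the difference was −0.22 ± 0.34 (adjusted p = 0.751).

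The angiopoietin-like genes Angptl2 and Angptl4 encode secreted proteins that do not bind Tek. Angptl4 is an inhibitor of lipoprotein lipase and a known target of hypoxia and of PPAR receptors, and Angptl2 is a secreted factor linked to inflammation. Angptl2 (chr2:33102102-33102159, plus strand) had log2 ratios of −0.25, −0.25, 0.01 and −0.10 in R175Q samples, against −0.96, −0.92, −0.38 and −0.91 in wild-type samples. The groups lay apart, and the highest array of each group was its replicate 3. Angptl2 rose by 0.65 ± 0.13 log2, or 1.56-fold (SE, 4 arrays per group, adjusted p = 0.00629 in limma). Within slides 2, 3 and 4 the difference was 0.71, 0.66 and 0.81.

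Angptl4 (chr17:33911880-33911939, minus strand) had log2 ratios of −1.07, −1.07, −0.94 and −0.98 in R175Q samples, against −1.41, −1.48, −1.87 and −1.41 in wild-type samples. The groups did not overlap, the R175Q arrays lay close together, and wild-type replicate 3 was the lowest array. The gene rose by 0.53 ± 0.10 log2, or 1.44-fold (adjusted p = 0.00536 in limma). Its difference was 0.35, 0.73 and 0.43 within slides 2, 3 and 4, and 0.42 without wild-type replicate 3. In the Cy3 channel alone, without the division by the reference, it was 0.65 and did not pass (adjusted p = 0.0602).

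Vegfc was the VEGF ligand that passed. Its probe (chr8:55271533-55271592, plus strand) had log2 ratios of 0.88, 0.90, 1.03 and 0.93 in R175Q samples, against 0.58, 0.40, 0.61 and 0.51 in wild-type samples. The groups were apart by 0.26. Vegfc, a ligand of the lymphatic receptor, rose by 0.41 ± 0.07 log2, or 1.33-fold (SE, 4 arrays per group, adjusted p = 0.00212 in limma), with 0.32, 0.52 and 0.42 within slides 2, 3 and 4. Figf, a VEGF ligand outside the 10 genes, differed by 0.32 ± 0.10 and narrowly did not pass (adjusted p = 0.0510 in limma).

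Vegfa, the principal angiogenic factor of the family, was higher on average at both probes and passed at neither. Probe A_52_P638895 had log2 ratios of −0.83, −0.84, −0.25 and −0.41 in R175Q samples, against −1.27, −1.40, −0.57 and −1.24 in wild-type samples. Probe A_52_P249424 had −1.39, −1.38, −0.87 and −1.19 in R175Q samples, against −1.58, −1.78, −1.004 and −1.64 in wild-type samples. At both probes wild-type replicate 3 lay among the R175Q arrays, and replicate 3 was the highest array of either group.

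The Vegfa difference was 0.53 ± 0.19 log2 at A_52_P638895 (1.45-fold, adjusted p = 0.0846 in limma) and 0.29 ± 0.17 at A_52_P249424 (1.23-fold, adjusted p = 0.280). Within slides 2, 3 and 4 the R175Q array was higher at each probe, by 0.43, 0.73 and 0.83 at A_52_P638895 and by 0.20, 0.52 and 0.44 at A_52_P249424. Without wild-type replicate 3 both probes passed in limma, at 0.72 (adjusted p = 0.00888) and 0.46 (adjusted p = 0.0295), and 8 of the 11 probes were then called higher. Calls over all 22849 probes rose too, to 2500 higher and 2652 lower, against 1807 and 2221 with all 8 arrays. With arrays centred on their medians A_52_P638895 passed in limma at 0.61 (adjusted p = 0.0116), which made 7 calls. That setting called 2791 of all probes higher and 813 lower, and the median difference of all probes was then 0.07.

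Vegfb and Pgf, the ligands of Flt1, did not pass. Vegfb (chr19:7057245-7057304, minus strand) ran from −0.17 to −0.01 in R175Q samples, against −0.31 to −0.14 in wild-type samples, and differed by 0.09 ± 0.06 (adjusted p = 0.382 in limma). Pgf, placental growth factor, ran from −1.21 to −1.02 in R175Q samples, against −1.20 to −0.73 in wild-type samples. Its difference was −0.17 ± 0.09 (adjusted p = 0.262 in limma), with −0.23, −0.13 and −0.27 within slides 2, 3 and 4, and it was −0.10 without wild-type replicate 3. The groups overlapped for both genes. The Pgf probe (minus strand) spans chr12:86508335-86510337.

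**Figure D2:**
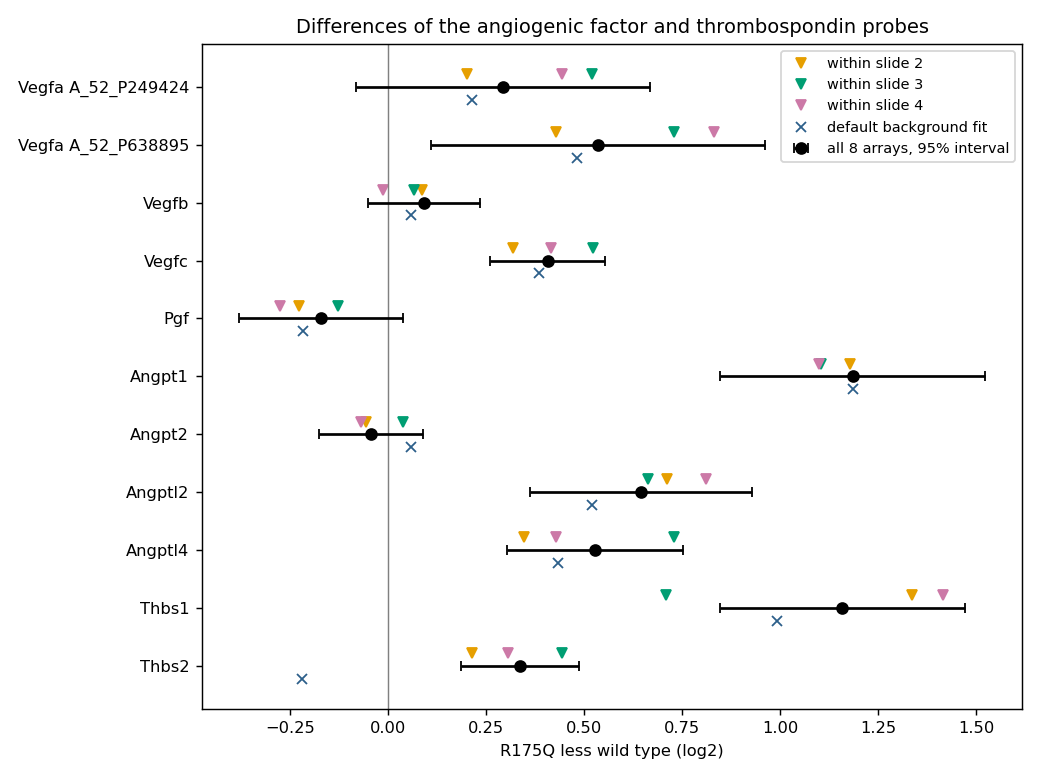
Difference in log2 ratio, R175Q less wild type (horizontal axis), for each of the 11 probes. Circles with bars give the fit to all 8 arrays with its 95% interval, triangles the differences within slides 2, 3 and 4, and crosses the fit after limma's default background correction. The crosses keep the sign of the circles except for Angpt2 and Thbs2, where Thbs2 moves to −0.22.

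All 6 calls held when any 1 of the 8 arrays was left out, with slide as a fixed block (adjusted p between 0.00505 and 0.0361) and with scan day as a fixed block. With slide as a fixed block after limma's default background fit, 0 of the 11 probes passed, and the 6 genes' adjusted p ran from 0.221 to 0.833. The differences were then 1.13 for Angpt1, 0.93 for Thbs1, 0.56 for Angptl2, 0.42 for Angptl4 and 0.39 for Vegfc, and −0.23 for Thbs2. At an unadjusted p of 0.05, 6 probes were then higher and 0 lower. Over all probes that combination called 0 higher and 1 lower.

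**Figure D3:**
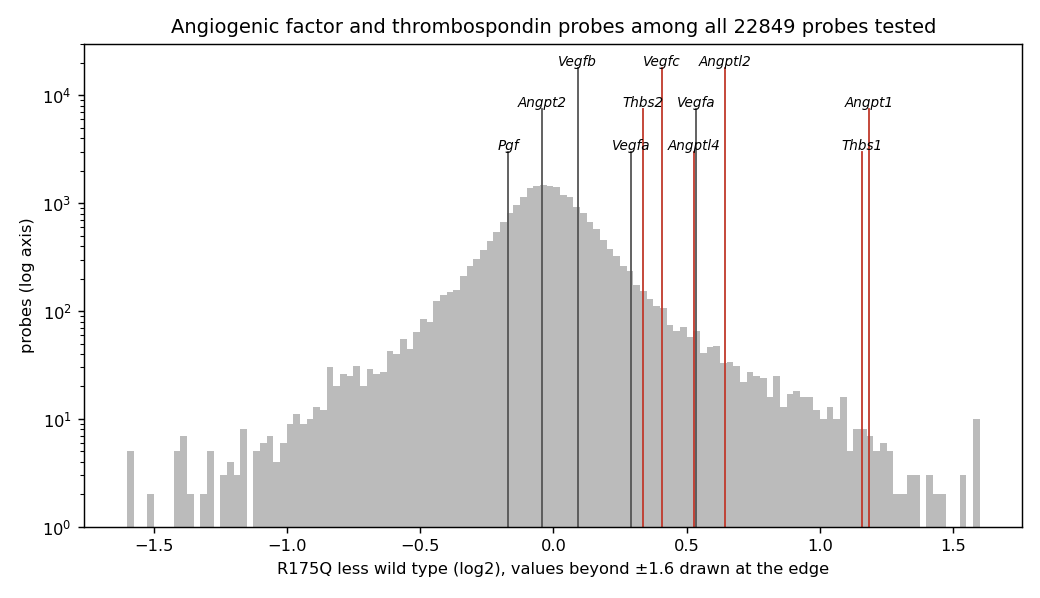
Histogram of the difference R175Q less wild type in log2 over all 22849 probes tested (horizontal axis) with the number of probes on a log axis. Vertical lines mark the 11 probes, red where the adjusted p was under 0.05 and dark grey otherwise. Angpt1 and Thbs1 lie beyond 1, where few probes of the whole array fall.

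The 11 probes deviated most on replicate 3 of each group, though not all in the same direction. Their mean absolute deviation was 0.265 on wild-type replicate 3 and 0.175 on R175Q replicate 3, against 0.084 to 0.137 on the other arrays. Wild-type replicate 3 was the farthest of its group from the group mean at 6 probes, and R175Q replicate 3 at 7. On wild-type replicate 3 both Vegfa probes lay above the group mean, by 0.50 and 0.55, and Angptl2 by 0.41. On the same array Angpt1 deviated by −0.49 and Angptl4 by −0.33. Vegfb, Angpt2 and Thbs2 deviated by at most 0.14 on any array.

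**Figure D4:**
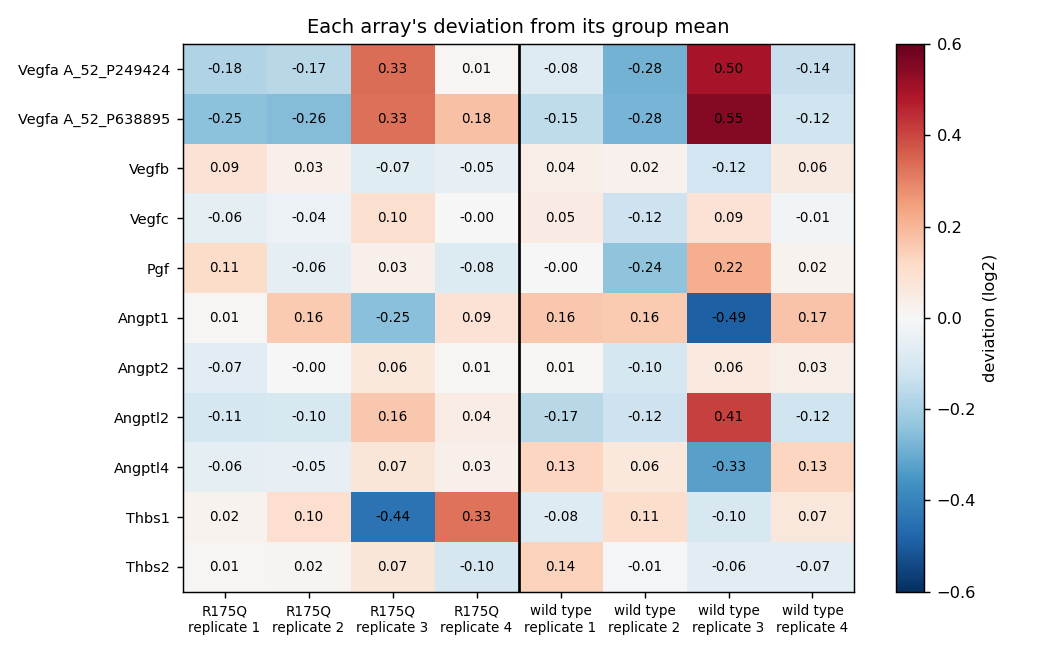
Deviation of each array from the mean of its group, in log2, for the 11 probes (rows) on the 4 R175Q arrays (left of the line) and the 4 wild-type arrays (right of it). Red marks a value above the group mean and blue one below it. The strongest colours stand on wild-type replicate 3, where the Vegfa probes were at 0.50 and 0.55 and Angpt1 at −0.49.

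Beyond the ligands, 54 other genes of the pathway were on the array, of which 44 were tested at their brightest probe. Of these 9 rose in R175Q samples, 2 fell and 33 did not pass, and their median difference was 0.05 log2. Over all probes, not only the brightest of a gene, 7.91% were higher and 9.72% lower. Those shares, 17.6% in either direction, are the background for the count of each list, and no list was tested as a set. Of the other VEGF and angiopoietin ligands 1 was tested, of the other angiopoietin-like genes 3 and of the other thrombospondins 2. Among these 0 passed. The genes that passed were Nrp2, Lrp1, Vash2, Bnip3, Car9, Slc2a1, Pdk1, P4ha1 and P4ha2, which rose, and Pdgfb and Fgf1, which fell.

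Among the VEGF receptors and co-receptors 1 of 5 passed (against 17.6% of all probes). Nrp2, a co-receptor for VEGF-C, had log2 ratios of 1.47, 1.51, 1.57 and 1.58 in R175Q samples, against 0.70, 0.60, 0.78 and 0.69 in wild-type samples. The groups lay far apart, and Nrp2 rose by 0.84 ± 0.06 log2, or 1.79-fold (SE, 4 arrays per group, adjusted p = 1.39e-05 in limma). The receptors Flt1, Kdr and Nrp1 differed by 0.10, −0.07 and −0.13 and did not pass. Flt1 had 2 tested probes, and the differences at them had opposite signs. Flt4, the receptor of VEGF-C, was well above background on 4 of 8 arrays and did not pass either, with a difference whose sign changed with the processing.

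The angiopoietin receptors Tek and Tie1 were not well above background on any array. They were not tested. Of 3 thrombospondin receptors 2 were tested, of which 1 passed, Lrp1 (against 17.6% of all probes). Cd36 was well above background on 2 of 8 arrays and was not tested. Cd47 differed by 0.15 ± 0.06 (adjusted p = 0.153 in limma), and by 0.19 without wild-type replicate 3 (adjusted p = 0.0399). Lrp1, an endocytic receptor that clears thrombospondins, had log2 ratios of −1.34, −1.34, −1.28 and −1.29 in R175Q samples, against −2.03, −1.99, −1.63 and −2.04 in wild-type samples. It rose by 0.61 ± 0.09 log2 (adjusted p = 0.00134 in limma), and all 3 of its probes had the same sign.

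Vegfa and Angptl4 are known targets of hypoxia, and whether that route has a part in their values was not tested. Of 9 other known targets 6 rose (against 7.91% of all probes) and 0 fell in limma, with 8 higher and 0 lower at an unadjusted p of 0.05. The median difference of these targets was 0.52 log2. Adm, Ndrg1 and Ankrd37 did not pass, at −0.14, 0.73 and 0.29. Bnip3, a mitochondrial protein, rose by 0.93 ± 0.14 (adjusted p = 0.00127 in limma) and the carbonic anhydrase Car9 by 0.99 ± 0.24 (adjusted p = 0.0200). P4ha1 and P4ha2, subunits of the collagen prolyl hydroxylase, rose by 0.34 ± 0.07 and 0.67 ± 0.13. The kinase Pdk1 rose by 0.46 ± 0.09 and the glucose transporter Slc2a1 by 0.52 ± 0.15. Slc2a1 no longer passed when any of 6 arrays was left out, R175Q replicates 2, 3 and 4 and wild-type replicates 1, 2 and 4. Car9 no longer passed without R175Q replicate 4 (0.86). Of the 9 genes of oxygen sensing itself, among them Hif1a, Epas1, Arnt and Vhl, 0 passed in limma (against 17.6% of all probes), with 1 higher and 1 lower at an unadjusted p of 0.05. Their median difference was 0.07 log2.

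Of 6 other angiogenic ligands 3 were tested, of which 2 fell (against 9.72% of all probes) and 0 rose in limma or at an unadjusted p of 0.05. Fgf2, Hgf and Cxcl12 were not tested. Fgf1, a fibroblast growth factor, ran from 1.32 to 1.66 in R175Q samples, against 2.03 to 2.35 in wild-type samples, and changed by −0.69 ± 0.10 (adjusted p = 0.000888 in limma). Pdgfb, a ligand that draws pericytes to vessels, changed by −0.33 ± 0.06 (adjusted p = 0.00489). Of 5 endogenous inhibitors of angiogenesis 1 passed (against 17.6% of all probes), the vasohibin relative Vash2, known to promote and not to inhibit vessel growth. Vash2 rose by 0.35 ± 0.09 (adjusted p = 0.0276 in limma), a call that was lost without R175Q replicate 2, 3 or 4 or wild-type replicate 1 or 2. Of the 5 PPAR and lipoprotein lipase genes, 0 passed in limma (against 17.6% of all probes), with 0 higher and 1 lower at an unadjusted p of 0.05. With limma's default background fit, Vash2, Car9, Slc2a1, P4ha1 and Fgf1 no longer passed, and with slide as a fixed block Vash2, Car9 and P4ha1 did not. Pdgfb did not pass with median centring (−0.22, adjusted p = 0.0669), nor Pdk1 in the Cy3 channel alone (0.32, adjusted p = 0.0699). Pdk1 was not the only call lost there: Cy3 alone called 6 pathway genes higher and the scanner's ratio 7, against 9 in the main fit.

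**Figure D5:**
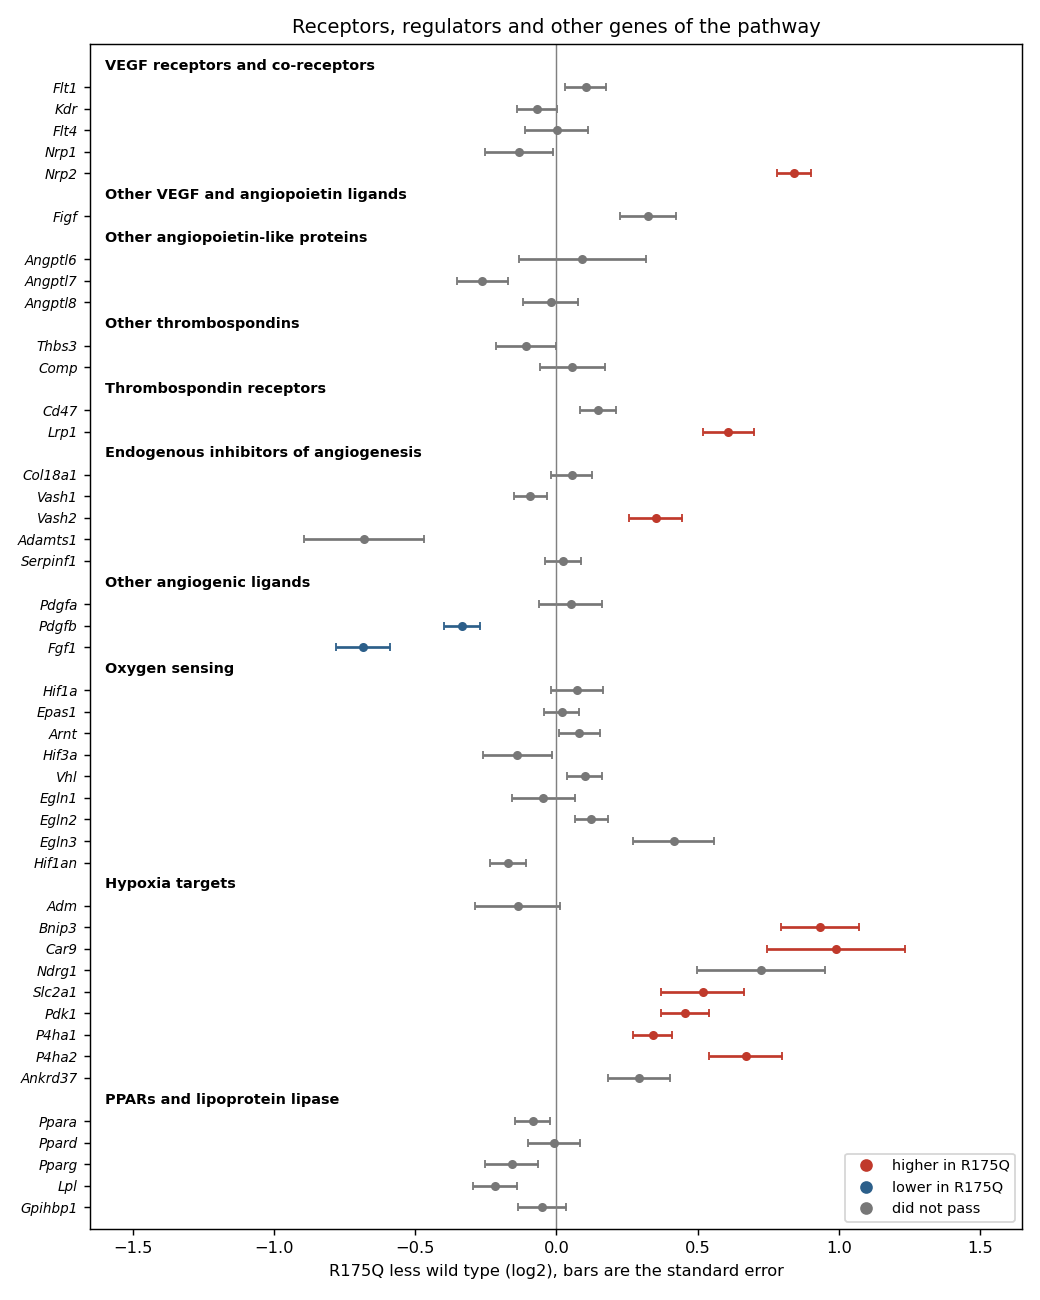
Difference in log2 ratio, R175Q less wild type (horizontal axis), with its standard error for the 44 pathway genes tested, grouped by role. Red marks genes that rose, blue genes that fell and grey genes that did not pass. The red points are Nrp2, Lrp1, Vash2 and 6 of the 9 hypoxia targets.

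Of 10 markers of endothelial cells, on which these factors act, 6 were not well above background on any array, among them Cdh5, Cldn5 and Emcn, and 3 were well above it on all 8. Of the 4 tested 1 rose (against 7.91% of all probes), Vwf, by 0.84 ± 0.11 (adjusted p = 0.000515 in limma). The list's mean log2 ratio per array ran from −1.07 to −0.98 in R175Q samples, against −1.16 to −1.05 in wild-type samples. Of 10 fibroblast and pericyte markers 6 were well above background on all 8 arrays, and Lum and Rgs5 were not on any array. Of the 7 tested 4 rose (against 7.91% of all probes), Pdgfrb, Col1a2, Col3a1 and Dcn, and 0 fell. Their mean ran from −5.01 to −4.76 in R175Q samples, against −5.32 to −5.00 in wild-type samples. Of 11 mammary epithelial markers 8 were well above background on all 8 arrays. Of the 9 tested 0 rose and 3 fell (against 9.72% of all probes), Krt7, Krt19 and Krt8. These changed by −1.91, −0.40 and −0.21, and the tested markers that did not pass by −0.27 to 0.10. The epithelial mean ran from −0.25 to −0.18 in R175Q samples, against 0.01 to 0.09 in wild-type samples. It includes Krt7, the largest change, and Cldn3 and Cldn4, which were not tested.

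Of 8 macrophage and myeloid markers 6 were well above background on all 8 arrays. Of the 7 tested 0 rose and 2 fell (against 9.72% of all probes), Mrc1 and Adgre1, by −0.61 and −0.28. Adgre1 was near background, well above it on 2 of the 4 R175Q arrays. The tested markers that did not pass changed by −0.14 to 0.54. The macrophage mean ran from −2.17 to −2.05 in R175Q samples, against −2.15 to −1.82 in wild-type samples. Of 5 adipocyte markers 4 were not well above background on any array, and Fabp4, a fatty acid binding protein and the marker tested, fell, changing by −1.02 ± 0.11 (adjusted p = 0.000226 in limma). The adipocyte mean, in which the other 4 markers were at background, ran from −0.33 to −0.12 in R175Q samples, against −0.13 to 0.01 in wild-type samples. The RNA came from a cultured line of mammary epithelium, so these counts describe transcripts and do not show that other cell types were present. The part of these differences in the changes of the vessel factors was not tested. In bulk RNA a change in the share of cells that express a gene and a change per cell cannot be told apart.

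The members that passed were also set beside the probes of other named genes whose log2 ratios were most like theirs over the 8 arrays, as a description, since these points share arrays, slides and the reference and fall into 2 groups. For Angpt1 these were Atp1b1, Gli3 and Cdadc1, with Pearson's r of 0.991 to 0.992. For Thbs1 they were Txk, Dnajc10 and Emc3, with r of 0.991 to 0.993. For Vegfc they were Ubald2, Ttc17 and Jam2, and for Angptl2 H2-Bl, Prnp and Rgs3. Ormdl1, Htra1 and Dis3 were nearest to Angptl4, and Mamld1, Tmem251 and Dnaja4 to Thbs2.

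RefSeq promoter windows (GRCm38.p6, 300 bases, 250 before to 50 after a start) were given for 6 of the 10 genes, 8 windows in all. The core of the hypoxia response element, ACGTG, was searched on both strands. It occurred in 1 of the 8 windows, a Vegfa window, and in 19.6% of 32851 windows of the same length. This says only that the letters are or are not in these windows.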

How the data were processed

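Agilent two-colour arrays measured 8 samples. Per the file headers, the scanner software was Agilent Feature Extraction 9.5.3.1, and its files hold a mean intensity per spot, a median intensity for the background around it, and a log10 ratio. The value table that the authors deposited is in log2 of Cy3 over Cy5, as found by setting it against the scanner ratios (r of 0.902 to 0.941 across probes). Its scaling and centring are not stated. Its median per array was 0.0585, 0.0562, 0.0607 and 0.0546 in R175Q samples, against 0.0524, 0.0617, 0.0592 and 0.0556 in wild-type samples, in replicate order.

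Mean intensities less local background were corrected by normexp with an offset of 50, with the background mean and SD of each array from its 153 negative control spots. limma's default fit, which put the Cy3 background between −690 and −0.369 while the negative control medians were 13.1 to 22.7, is an alternative. Loess within arrays and averaging of the spots of a probe followed in limma 3.58.1 (R 4.3.3). Of 39429 probes, 22960 cleared background in Cy3 (the scanner's call) on 4 arrays or more, and 111 with an outlier-marked value were left out. R175Q less wild type was tested two-sided by limma (lmFit, eBayes). P-values were adjusted over all probes by the method of Benjamini and Hochberg, and 0.05 was the threshold. An error after ± is the standard error of the difference.

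Gene names come from the files. Probe sequences other than the 5 printed are not reported here. RefSeq accessions of 26761 probes matched the GRCm38.p6 table, which changed 2878 symbols. Pathway and marker genes were read at their brightest probe. Named pathway genes are those that passed, the receptors of the members and the nearest 3 genes by r. Others, such as Figf, Adm, Ndrg1 and Ankrd37, were named after their values were seen. The members and lists were chosen with earlier results of these data known. The alternatives were other background corrections, scalings, filters, blocks, the Cy3 channel alone, the deposited table and leaving out each array. A robust estimate of the negative controls was added after seeing the data. The main background correction was itself chosen with an earlier analysis of these data known. That analysis had found the default fit's background far below the negative controls on an array. On simulated data for this comparison, over 22849 probes, 70% of changes of 0.5 log2 and 96% of changes of 1 were recovered, with 1.61% false calls. Simulated arrays held no slide or background effects.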

Additional observations from a re-analysis of the deposited data

Results flagged for a closer look

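Wild-type replicate 3 was far from the other 3 arrays of its group, relative to the group's range, at 3 probes. Angpt1 was at 1.35 log2 there, against 2.00 on the nearest wild-type array. Angptl2 was at −0.38, against −0.91 on the nearest. Angptl4 was at −1.87, against −1.48. The test was made in 22 groups of 4 arrays, and chance flags about 1 in 20. The 3 genes were called higher in R175Q with and without that array. The cause of its distance was not tested.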

How the results depend on the processing

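Of 23 alternatives with a test, each changing the processing or leaving out 1 array, the 6 calls among the 11 probes all held in 20, of which Aquantile could change no call, since it leaves the ratios as they are. The default background fit gave 5 calls, losing Thbs2, the Cy3 channel alone 5, losing Angptl4, and the default fit with slide as a fixed block 0. The 11 probes gave 0 lower calls under all 23. Over all probes the default fit called 484 higher and 432 lower, median centring 2791 and 813, and the default fit with slide as a fixed block 0 and 1. Of the pathway genes the default fit called 5 higher and 1 lower, and adding the slide block left 0 and 0. Leaving out 1 array gave 1290 to 2500 higher and 1462 to 2652 lower probes, 6 to 8 members higher, and 6 to 11 pathway genes higher and 2 to 3 lower. Whether replicate numbers pair the samples was not settled. Same-numbered arrays' deviations correlated at 0.33, 0.013, 0.46 and 0.054, and those of differently numbered arrays at −0.41 to 0.44. The replicate block called 8 members higher, among them both Vegfa probes (adjusted p = 0.00544 and 0.0286), 2095 probes higher and 2514 lower, and 12 pathway genes higher and 4 lower.

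The sign turned for 1 called probe, Thbs2, and for differences that had not passed. Angpt2 was 0.0600 with the default fit, 0.0893 with median centring, 0.0122 in the Cy3 channel alone, 0.0906 with the default fit and slide block, and 0.0397 within slide 3. Thbs2 was −0.218 with the default fit and −0.23 with the slide block added. Vegfb was −0.0133 within slide 4. Kdr was 0.0622 with median centring. Nrp1 was 0.0736 with the default fit, 0.0103 with median centring, 0.0276 with the default fit and slide block and 0.0164 within slide 2. Flt4 was −0.0068 without background correction, −0.0463 with median centring, −0.0163 in Cy3 alone, −0.0515 in the deposited table, −0.0192 with slide as a fixed block, −0.0457 with scan day, −0.0159 with robust controls, −0.0882 within slide 3, and −0.0551 to 0.113 when 1 array was left out. The causes were not tested. The median difference of all probes stayed between −0.03 and 0.07. Signal over background limits Thbs2 most among the members.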
